A study of Mus musculus with 59 samples.

Results

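The genes for the conjugating enzymes of phase II metabolism were followed at the RNA level in lung, liver and forestomach of male Muta™Mouse, a transgenic strain with a bacterial lacZ reporter carried in a phage vector in every cell. Members were taken by gene symbol: the cytosolic glutathione S-transferases of the alpha, kappa, mu, omega, pi, theta and zeta classes, the microsomal glutathione S-transferases (Mgst), the UDP-glucuronosyltransferases (Ugt1a, Ugt2a, Ugt2b and Ugt3a) and the sulfotransferases (Sult). The rule gave 59 genes on 81 probes, out of 37163 genes or transcripts on 55681 probes of the array. A further 11 symbols in the RefSeq name table met the rule but were matched to no probe, Ugt1a1 and Ugt1a9 among them, and were not analysed here. The families held 4 Gsta genes, 7 Gstm genes, 11 other cytosolic Gst genes, 3 Mgst genes, 3 Ugt1a genes, 11 Ugt2 and Ugt3 genes, 6 Sult1 genes and 14 other Sult genes.

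Benzo(b)fluoranthene (BbF), a polycyclic aromatic hydrocarbon of combustion smoke, was given by oral gavage in olive oil for 28 days to mice of about 16 weeks. One group received the vehicle, olive oil without BbF. The others received 25 (low), 50 (medium) or 100 (high) mg/kg-bw/day, and tissue was collected 72 h after the last dose. There were 20 mice, 5 in each group, and 59 arrays, since 1 low-dose mouse had no lung array. One label field and the series design text name benz(a)anthracene as the compound. The sample titles and the treatment protocol name BbF, and that name is used here. On each array the tissue RNA was labelled with Cy5 and a common reference RNA, pooled from mouse cell lines, with Cy3. A level is therefore the log2(Cy5/Cy3) of a probe, tissue over reference, and a change is a difference of 2 such levels. Levels rank tissues and doses for the same gene but do not rank one gene above another.

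Glutathione S-transferases add glutathione to electrophiles, and the diol epoxides formed from polycyclic aromatic hydrocarbons are among their substrates. UDP-glucuronosyltransferases add glucuronic acid to phenols, steroids and bile acids, mostly in the endoplasmic reticulum of liver and gut. Sulfotransferases move sulfate from its activated donor to alcohols and phenols, a step that mostly inactivates but can also produce reactive esters. Several of these genes are textbook targets of the aryl hydrocarbon receptor (AhR) or of the oxidant-responsive factor NRF2.

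The labelled tissues carried their defining markers. The mean level of the alveolar type II markers was 5.52 to 5.72 in vehicle lung, that of the hepatocyte markers was 6.94 to 7.52 in vehicle liver, and that of the squamous epithelium markers was 3.37 to 3.86 in vehicle forestomach. Between 44.8 and 68.8% of probes were well above background on lung arrays and between 39.6 and 52.0% on forestomach arrays. The lung array at 68.8%, from medium-dose mouse 13, stood apart, since the next highest was at 52.7%. Liver arrays split by slide. The third slide held 8 livers, of which 3 were from the high dose, 2 each from the low and medium dose, and 1 from a vehicle mouse. On these 10.7 to 12.9% of probes were above background, against 37.1 to 46.2% on the other 12 livers. In forestomach, 4 glandular stomach markers (Atp4b, Muc5ac, Tff1 and Gkn1) varied from mouse to mouse, with a mean level of 5.84, 1.32, 3.67, 5.20 and 2.98 in the vehicle animals. Hepatocyte markers also gave a signal in forestomach, with a mean level of 0.55 to 2.83 in vehicle mice. It was 0.33 to 2.78, 2.38 to 5.52 and 1.18 to 2.51 at the low, medium and high dose. At the medium dose their median change was 1.86, and 0 of the 5 were called. These features touch results given further on. Of the 59 genes, 5 were never well above background (Gstt4, Sult1c1, Sult2a1, Sult2a2 and Sult2a4), and 17 were above it on all 59 arrays.

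In vehicle mice the conjugating enzymes were mostly liver genes, with a smaller set highest in forestomach and none highest in lung. A gene was called when limma's adjusted p was at most 0.05 and the difference at least 1.5-fold. By that rule 30 genes were higher in liver than in both other tissues, and 11 were highest in forestomach. Another 4 had calls of another pattern and 14 had none. Between lung and liver 38 of the 59 genes (64.4%) were called, 3 of them higher and 35 lower in lung. Of all genes on the array 30.5% were called in the same comparison, 17.9% higher and 12.6% lower in lung. Between liver and forestomach 41 genes (69.5%) were called, 30 higher in liver and 11 lower, against 25.5% of all genes (10.5% higher and 15% lower). Between lung and forestomach 24 genes (40.7%) were called, 5 higher in lung and 19 lower, against 24.2% of all genes (12.6% higher and 11.6% lower). With each array centred on its median in place of loess normalization, the lung to forestomach count was 11, with 0 higher in lung. Leaving aside omissions of single mice, the alternative settings gave 26 to 41 between lung and liver and 28 to 45 between liver and forestomach. The tissue classes were not recomputed with them. The median difference over the 59 genes was -1.72 for lung minus liver and 1.35 for liver minus forestomach, while over all probes it was -0.02 and 0.01. In bulk tissue, fewer cells of a type and less RNA per cell cannot be told apart. Each tissue was hybridised on slides of its own, so differences between tissues cannot be told apart from differences between slides. The p-values measure the spread between arrays, each from another mouse, so mouse and slide are mixed in it. In vehicle liver, mouse 5 was the only array of the third slide. Without it the SD fell from 1.38 to 0.13 for Ugt2b5 and from 2.24 to 0.44 for Ugt2b1, but rose from 0.59 to 0.68 for Gsta1.

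**Figure D1:**
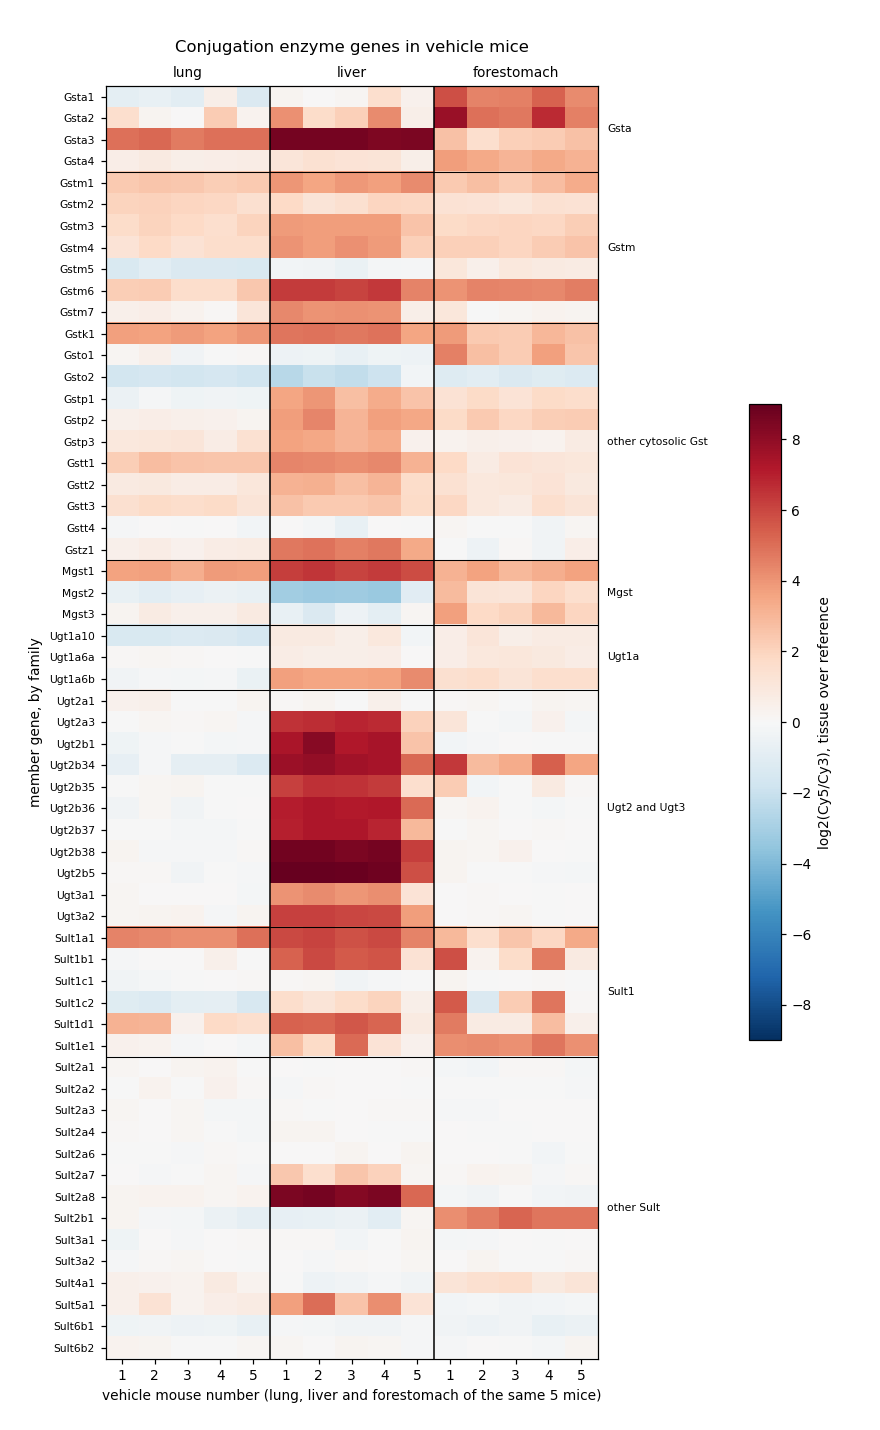
Level, log2(Cy5/Cy3), of each of the 59 genes (rows, by family) in lung, liver and forestomach of the 5 vehicle mice (columns), red above and blue below the reference RNA. Apart from Ugt2a1, the Ugt2 and Ugt3 rows are red in liver and near white in lung, Gsta1, Gsta2 and Sult2b1 are reddest in forestomach, and in those Ugt rows the liver of mouse 5, on the third slide, is paler than the other 4 livers.

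Alpha-class glutathione S-transferases divided by tissue. Gsta3, a main alpha-class enzyme of mouse liver known for conjugating aflatoxin epoxide, had levels of 8.63, 8.64, 8.60, 8.42 and 8.48 in vehicle liver. In the lungs of the same mice its levels were 4.96, 5.20, 4.66, 4.94 and 4.96, and in the forestomachs 2.63, 1.53, 2.15, 2.31 and 2.60. The tissues did not overlap, in the order liver, lung, forestomach. Liver exceeded lung 12.2-fold (adjusted p = 7.6e-11) and forestomach 79.2-fold (adjusted p = 7.61e-14), and lung exceeded forestomach 6.49-fold (adjusted p = 3.34e-09).

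Gsta1, an alpha-class enzyme that rises with NRF2 activation, ran the other way. Its forestomach levels were 5.78, 4.47, 4.51, 5.31 and 4.25, against 0.22, 0.06, 0.20, 1.52 and 0.37 in liver and -0.90, -0.68, -0.92, 0.49 and -1.27 in lung. Every forestomach was above every liver and lung, by 21.0-fold over liver (adjusted p = 9.02e-08) and 45.9-fold over lung (adjusted p = 6.61e-09). Gsta2, its close paralogue, was 9.20-fold higher in forestomach than in liver (adjusted p = 0.00371). Gsta4, which conjugates aldehydes of lipid peroxidation, was 4.74-fold higher in forestomach than in liver (adjusted p = 8.55e-09). Gsta1 and Gsta2 are near-identical in sequence, as are several Gstm, Gstp, Sult2a and Ugt2b genes, and the Ugt1a genes share their last exons. Probe sequences were not used here, so a signal may be shared between such genes.

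The start regions of Gsta3 and Gsta1 are shown because these genes had opposite tissue orders, that of Gsta2 because it is the neighbour of Gsta1, and that of Gstm1 because its lung level is taken up again with dose. Each runs from 250 bases before to 50 bases after the transcript start (RefSeq, GRCm38.p6), 5′ to 3′ on the gene's strand. Capitals mark matches, on either strand, to the HNF1 core GTTAAT, the AhR response element core GCGTG or the antioxidant response element core TGACNNNGC.
Gsta3, chr1:21240335-21240634, plus strand: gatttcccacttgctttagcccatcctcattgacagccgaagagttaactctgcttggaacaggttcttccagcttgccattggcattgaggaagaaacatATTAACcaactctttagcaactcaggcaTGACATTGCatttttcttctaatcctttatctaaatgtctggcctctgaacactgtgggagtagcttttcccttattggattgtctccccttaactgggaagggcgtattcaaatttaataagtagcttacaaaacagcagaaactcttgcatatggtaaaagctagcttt
Gsta1, chr9:78230419-78230718, plus strand: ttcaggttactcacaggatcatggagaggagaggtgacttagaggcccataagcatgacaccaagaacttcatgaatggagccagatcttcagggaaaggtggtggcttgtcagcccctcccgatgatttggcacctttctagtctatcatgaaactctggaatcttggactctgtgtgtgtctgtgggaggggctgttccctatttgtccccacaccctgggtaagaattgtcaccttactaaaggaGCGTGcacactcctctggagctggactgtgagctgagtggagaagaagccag
Gsta2, chr9:78347096-78347395, minus strand: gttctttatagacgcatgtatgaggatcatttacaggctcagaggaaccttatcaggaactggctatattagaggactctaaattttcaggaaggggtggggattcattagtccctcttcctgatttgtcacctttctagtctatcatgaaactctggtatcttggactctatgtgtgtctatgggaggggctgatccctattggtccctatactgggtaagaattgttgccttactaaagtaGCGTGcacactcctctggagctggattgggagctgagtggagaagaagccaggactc
Gstm1, chr3:108017769-108018068, minus strand: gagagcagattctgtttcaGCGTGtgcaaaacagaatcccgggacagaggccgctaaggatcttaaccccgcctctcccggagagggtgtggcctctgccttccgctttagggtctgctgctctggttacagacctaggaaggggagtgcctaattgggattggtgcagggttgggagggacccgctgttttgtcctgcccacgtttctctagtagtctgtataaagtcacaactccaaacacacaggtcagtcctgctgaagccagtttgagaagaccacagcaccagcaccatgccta
Gsta3 held ATTAAC, the reverse complement of the HNF1 core, starting at -149 and TGACATTGC at -121. Gsta1 and Gsta2 held GCGTG at -2 and at -7, within a stretch of like sequence at the start site. Gstm1 held it at -231 from the start shown. The region of a second Gstm1 start, chr3:108017924-108018223, overlaps this one and also held 1 match. The core GCGTG stood in 35.2% of the 27025 genes with a start region in the table and in 19.6% of the 51 members that had one. It was in 5 of 9 forestomach-highest members (55.6%) and in 11.5% of the liver-highest members. The antioxidant core stood in 14.0% of all genes and in 4 of the 51 members (7.84%). A match describes these letters only, not a bound site.

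Most mu, pi, theta and zeta class genes were highest in liver. Of the 7 Gstm genes 5 were in that class, and of the 11 other cytosolic genes 8. Gstz1, the maleylacetoacetate isomerase of tyrosine breakdown, had levels of 4.74, 4.87, 4.52, 4.73 and 3.44 in vehicle liver, 0.43, 0.65, 0.37, 0.65 and 0.72 in lung, and -0.06, -0.43, 0.08, -0.32 and 0.61 in forestomach. All livers were above all lungs (14.9-fold, adjusted p = 2.13e-09) and all forestomachs (22.4-fold, adjusted p = 4.68e-10), and the lowest liver was that of mouse 5 on the third slide. Gstp1, a pi-class enzyme active on diol epoxides, was 12.0-fold higher in liver than in lung (adjusted p = 1.76e-09) and 3.31-fold higher than in forestomach (adjusted p = 1.04e-05). Gstm6 and Gstm7, of the mu class, had liver levels of 6.11 to 6.33 and 4.06 to 4.33 in mice 1 to 4 and of 4.49 and 0.54 in mouse 5. In mouse 5 liver Gstm6 was above all lungs but inside the forestomach range of 4.03 to 4.61, whereas Gstm7 fell inside the lung range of 0.11 to 1.07.

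Gsto1, an omega-class enzyme that reduces dehydroascorbate and protein thiol adducts, was a forestomach gene. Its levels there were 4.54, 2.74, 2.29, 3.68 and 2.51, against -0.48, -0.40, -0.65, -0.38 and -0.46 in liver and 0.15, 0.46, -0.28, -0.00 and 0.11 in lung. Forestomach did not overlap the other tissues and exceeded liver 12.3-fold (adjusted p = 2.01e-07). Gstm5 was the forestomach-highest gene of the mu class, with a mean level of 0.80 ± 0.23 (SD, n = 5) there and -0.28 ± 0.18 in liver.

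The 3 microsomal transferases split as the alpha class did. Mgst1, the membrane enzyme abundant in liver endoplasmic reticulum and mitochondria, was 7.28-fold higher in liver than in forestomach (adjusted p = 3.42e-10) and 5.80-fold higher than in lung (adjusted p = 1.27e-09). Mgst2, a relative with leukotriene synthase and peroxidase activity, had levels of 2.86, 1.13, 1.10, 1.96 and 1.51 in forestomach and of -3.16, -3.24, -3.21, -3.31 and -1.03 in liver. Forestomach exceeded liver 22.6-fold (adjusted p = 2.32e-07), with mouse 5 the highest liver. Mgst3 was 8.53-fold higher in forestomach than in liver (adjusted p = 1.55e-06). For Mgst2 and Mgst3 the forestomach mice with the highest glandular marker level, mice 1 and 4, also had the highest levels.

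Glucuronosyltransferases gave the widest contrasts. Of the 11 Ugt2 and Ugt3 genes 10 were highest in liver, and 10 were not well above background in any vehicle lung. Ugt2b5, a liver enzyme for steroids and xenobiotics, had levels of 9.00, 9.00, 8.89, 8.72 and 5.83 in vehicle liver, against -0.31 to 0.09 in lung and -0.18 to 0.25 in forestomach. Its probe was not above background in either other tissue, so only a bound holds: liver was at least 220-fold above lung (adjusted p = 4.86e-10). The bound sets the mean liver signal against the lowest signal well above background on each dim array, each channel taken alone, which leaves it open to dye bias without swapped arrays. By the same measure liver exceeded lung at least 66.2-fold for Ugt2b1 and 52.5-fold for Ugt2b37. For Ugt2b38, Ugt2b36 and Ugt3a2, the last of which uses sugars other than glucuronic acid, the channel signals gave more than the ratios themselves, so no bound is given. Their liver levels were above their lung levels by 8.12, 6.83 and 5.43 on the log2 scale (adjusted p = 3.82e-11, 7.16e-11 and 2.95e-09). Mouse 5 had the lowest liver level of each of these genes, and its Ugt2b5 level was still above every lung and forestomach. Ugt2b34 differed from the rest of its family by a clear forestomach signal, with levels of 6.38, 2.88, 3.34, 5.41 and 3.57 there, and liver exceeded forestomach 7.10-fold (adjusted p = 0.00204).

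Of the Ugt1a genes, whose products act on phenols and bilirubin, Ugt1a6b was highest in liver. Its levels were 3.69, 3.58, 3.57, 3.62 and 4.23 in liver, -0.30, -0.12, -0.20, -0.08 and -0.59 in lung, and 1.46, 1.58, 1.14, 1.49 and 1.54 in forestomach. The tissues did not overlap, and liver exceeded lung 16.0-fold (adjusted p = 2.08e-12). Ugt1a10 was about as high in liver as in forestomach by its brighter probe (difference -0.17, adjusted p = 0.56), while its other probe was 1.72-fold higher in forestomach (adjusted p = 5.37e-05). By both probes lung was below forestomach.

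Sulfotransferases included genes that stood out in a single tissue. Sult2a8, which sulfates bile acids in mouse liver, had levels of 8.45, 8.59, 8.25, 8.51 and 5.18 in vehicle liver, against 0.20 to 0.31 in lung and -0.30 to -0.02 in forestomach. Sult2b1, which makes cholesterol sulfate in squamous epithelia, had levels of 4.19, 4.64, 5.24, 4.84 and 4.78 in forestomach, against -0.95 to 0.18 in liver and -0.81 to 0.27 in lung. Neither gene overlapped between its highest tissue and the others, and forestomach exceeded liver 39.0-fold (adjusted p = 4.38e-11) and lung 32.2-fold (adjusted p = 1.02e-10) for Sult2b1. Sult1a1, the phenol sulfotransferase, was highest in liver, 2.31-fold over lung (adjusted p = 0.0116) and 9.03-fold over forestomach (adjusted p = 2.38e-06). Sult1e1, the oestrogen sulfotransferase, was not above background in any vehicle lung and had levels of 4.17, 4.25, 4.10, 4.83 and 4.10 in forestomach, at least 12.2-fold over lung (adjusted p = 4.03e-05). Its liver levels of 2.69, 1.73, 5.10, 1.20 and 0.41 were spread over both sides of the forestomach range. Of the 7 Sult2a genes with a probe, Sult2a7 and Sult2a8 were the 2 whose brightest probe was well above background on more than 2 of the 59 arrays.

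The members on chromosome 5 lay side by side. The starts of 12 of them (7 Ugt2b genes, 2 Ugt2a genes, Sult1b1, Sult1d1 and Sult1e1) fell within 685 kb, and 8 of the 12 were liver-highest. The start region of Ugt2a3 is shown because it was the 1 of these 8 that held the HNF1 core, which the other 7 lacked, and that of Ugt1a10 because it is taken up again with dose in liver. Capitals mark the HNF1 core GTTAAT, on either strand, for the liver factor HNF1.
Ugt2a3, chr5:87337146-87337445, minus strand: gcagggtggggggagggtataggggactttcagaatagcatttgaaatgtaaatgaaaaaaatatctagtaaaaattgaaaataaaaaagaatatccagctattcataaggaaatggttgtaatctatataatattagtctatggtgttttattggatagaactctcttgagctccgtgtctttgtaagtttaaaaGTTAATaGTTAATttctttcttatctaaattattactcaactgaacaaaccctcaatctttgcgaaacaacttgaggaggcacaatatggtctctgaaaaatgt
Ugt1a10, chr1:88055161-88055460, plus strand: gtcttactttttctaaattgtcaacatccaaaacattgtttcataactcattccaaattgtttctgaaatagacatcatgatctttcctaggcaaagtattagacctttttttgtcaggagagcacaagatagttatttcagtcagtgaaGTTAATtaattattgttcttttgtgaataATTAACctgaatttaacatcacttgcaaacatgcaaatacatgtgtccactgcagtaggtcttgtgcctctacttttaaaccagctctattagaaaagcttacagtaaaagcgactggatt
Ugt2a3 held GTTAAT at -54 and at -47, next to each other, and Ugt1a10 held it at -100 and, as ATTAAC, at -71. The HNF1 core stood in 11 of the 51 members with a start region (21.6%), in 4 of 26 liver-highest members (15.4%) and in 8.24% of all genes. No binding was measured here.

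In the lung, the tissue with the most genes called with dose, no conjugating enzyme passed the call at any dose. Of the 59 genes 0 were called at the low, medium and high dose, against 0.449, 0.638 and 1.93% of all genes. With median centring in place of loess 4 were called at the high dose (Gstp1, Gstt2, Mgst3 and Ugt1a6b, all higher). At an unadjusted p of 0.05 or less there were 8, 9 and 14 genes (13.6, 15.3 and 23.7% of the members), close to the 12.5, 19.2 and 24.5% of all genes. Adjusted p alone, with any fold, was passed by 1, 2 and 4 members, or 1.69, 3.39 and 6.78%, against 0.915, 2.66 and 8.42% of all genes. At the high dose the 95% confidence interval of the change lay inside 1.5-fold in both directions for 47 of the 59 genes. A probe well above background on all 5 vehicle lungs was present for 29 of the 59. For probes near background a narrow interval of the ratio does not bound the change in RNA. Of 19 genes with several probes, 6 had probes whose high-dose changes differed in sign.

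Gstm1, a mu-class enzyme that conjugates epoxides, passed adjusted p at all 3 doses with a change below 1.5-fold. Vehicle lungs had levels of 2.38, 2.52, 2.42, 2.25 and 2.38, and low-dose lungs of 2.11, 1.96, 1.93 and 1.89. Medium-dose lungs had 1.68, 2.00, 1.98, 1.96 and 1.75, and high-dose lungs 2.14, 2.11, 2.07, 1.75 and 1.83. Every dosed lung was below every vehicle lung, and the 3 doses overlapped. The changes were -0.42 (adjusted p = 0.0356), -0.52 (adjusted p = 0.00346) and -0.41 (SE 0.088, adjusted p = 0.0064) by increasing dose. At the low dose Gstm1 was the only member to pass, and with a mouse left out a member passed in 2 of 9 fits. A second probe gave -0.31 at the high dose (adjusted p = 0.0541), the 3 slides gave -0.33, -0.27 and -0.59, and with median centring in place of loess the sign turned, to 0.11 (adjusted p = 0.791).

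Another 3 genes passed adjusted p at the high dose. Gstt2, of the theta class, was higher, with 0.82, 0.90, 0.64, 0.69 and 0.99 in vehicle lung and 1.06, 1.32, 1.15, 1.34 and 1.21 at the high dose. All high-dose lungs were above all vehicle lungs (0.41, adjusted p = 0.0136), with 0.33, 0.49 and 0.29 within the slides. With median centring the Gstt2 change was 0.74 and was called (adjusted p = 0.0014).

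Gstk1, the kappa-class enzyme of mitochondria and peroxisomes, was lower, with 3.70, 3.61, 3.85, 3.65 and 3.99 in vehicle lung and 3.60, 3.43, 3.41, 3.44 and 3.30 at the high dose. All high-dose lungs were below all vehicle lungs (-0.33, adjusted p = 0.0317), with -0.14, -0.34 and -0.62 within the slides. The size of the Gstk1 change under the other normalizations is not given here. Sult4a1, a sulfotransferase best known from brain, was also lower, with 0.48, 0.37, 0.32, 0.84 and 0.33 in vehicle lung and 0.19, 0.28, -0.00, -0.04 and -0.12 at the high dose (-0.41, adjusted p = 0.0295), again without overlap. A second Sult4a1 probe had an adjusted p of 0.999, and without any of mice 1, 4, 18, 19 and 20 the first no longer passed (adjusted p 0.0606 to 0.0865). With all mice kept, the change of the first probe ranged from -0.43 to -0.23 over the settings. Over settings and omissions its adjusted p in limma ranged from 0.0189 to 0.204. At the medium dose Gstp2, of the pi class, was lower by the same rule (-0.41, adjusted p = 0.0296, with -0.21 and an adjusted p of 0.359 by a second probe), while at the high dose its levels of 0.17 to 0.58 overlapped the vehicle range of 0.24 to 0.62.

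**Figure D2:**
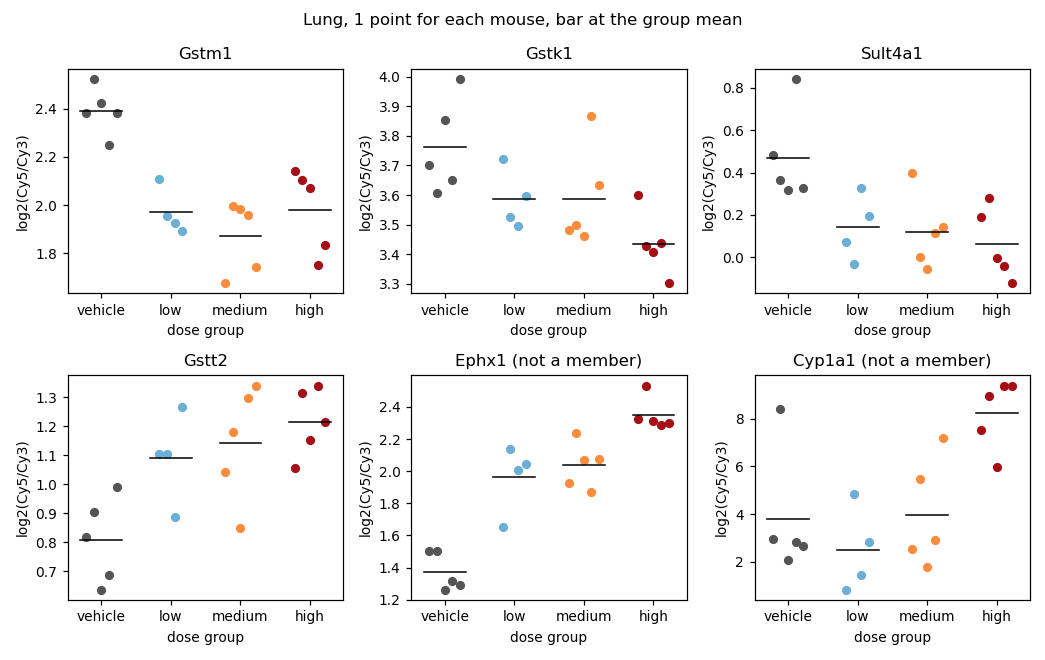
Lung level, log2(Cy5/Cy3), of 4 members and of Ephx1 and Cyp1a1, which are not members, by dose group, with 1 point for each mouse and a bar at the group mean. Gstm1 sits lower in every dosed mouse than in every vehicle mouse, the other 3 members shift by less than 1 unit, and Ephx1 climbs with dose.

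Some genes of the steps before and beside conjugation did pass in lung. Of 4 genes that report exposure, 3 were called at the high dose (Cyp1a1, Cyp1b1 and Tiparp). Of 10 neighbouring detoxification enzymes and efflux pumps, 3 were called (Ephx1, Nqo1 and the pump gene Abcb1a), against 1.93% of all genes, and the median change of the 10 was -0.02. Cyp1a1, an AhR target and the first oxidising enzyme for these hydrocarbons, rose by 4.47 at the high dose (adjusted p = 0.0202) and its relative Cyp1b1 by 4.44 (adjusted p = 0.000412). Vehicle mouse 2 had a lung Cyp1a1 level of 8.39, whereas the other vehicle lungs ranged from 2.06 to 2.97. Without that mouse 769 genes were called in lung at the high dose in place of 717, and still 0 members. Ephx1, the epoxide hydrolase that acts on the same epoxides as the transferases, rose by 0.59, 0.66 and 0.98 with dose (adjusted p = 0.00339, 0.000581 and 1.3e-06). Nqo1, a quinone reductase and textbook NRF2 and AhR target, had levels of -0.73, 0.50, -1.16, 0.85 and 0.84 at the high dose, against -1.47 to -0.84 in vehicle lung, and rose by 1.25 (adjusted p = 0.0138). Mouse 18 was inside the vehicle range and mouse 16 just above it. In the same pair of mice Cyp1b1 was at 0.67 and 1.03, below the 4.95 to 5.01 of the other high-dose lungs, so these arrays stood apart within their group. The calls of these 4 genes were not recomputed with single mice left out.

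The members that textbooks list as AhR or NRF2 targets were not called with loess normalization. The 12 on the array (Ugt1a6a, Ugt1a6b, Gsta1 to Gsta4, Gstm1 to Gstm4, Gstp1 and Gstp2) had high-dose lung changes of -0.515 to 0.141 with a median of -0.085. For 9 of the 12 the interval lay inside 1.5-fold. In liver the 12 had a median change of -0.477, with 2 intervals inside 1.5-fold, and in forestomach one of 0.439, with 9 of the 12 above 0 and 5 intervals inside 1.5-fold. In lung Ugt1a6b changed by 0.14 (95% interval -0.11 to 0.38) and Gsta1 by -0.51 (-1.26 to 0.23), the least certain but for Gsta2. With median centring in place of loess 2 of the 12 were called in lung at the high dose, Gstp1 at 0.62 (adjusted p = 0.011) and Ugt1a6b at 0.62 (adjusted p = 0.0219).

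Of the enzymes that supply glutathione, glucuronic acid and active sulfate, 0 of 8 were called at any dose in any tissue, and of 9 methyl-, acetyl- and acyl-transferases also 0.

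**Figure D3:**
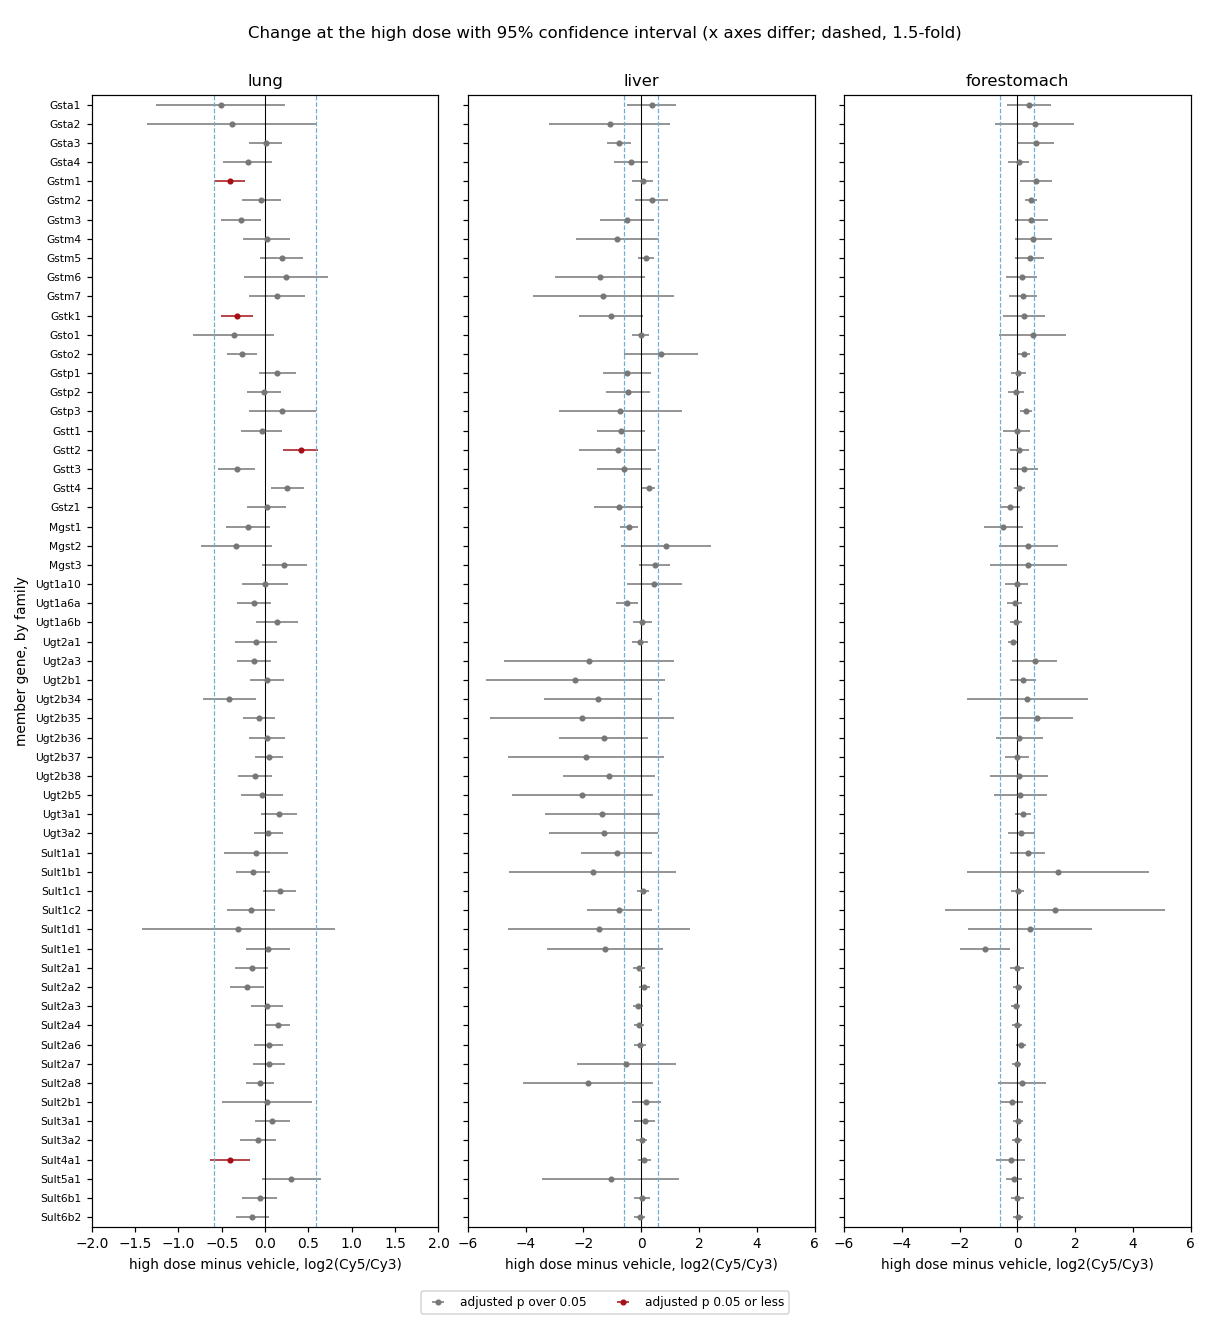
Change at the high dose against vehicle, log2(Cy5/Cy3), with the 95% confidence interval for each of the 59 genes in lung, liver and forestomach, dashed lines at 1.5-fold and x axes that differ in range. In lung 4 genes pass adjusted p (red) and most intervals lie inside the dashed lines, whereas the liver intervals are wide and none passes.

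In the liver no member was called at any dose. Of all genes, 0.0, 0.0 and 0.00538% were called at the low, medium and high dose (0, 0 and 2 genes), and at an unadjusted p of 0.05 or less there were 3, 2 and 5 members against 4.91, 6.48 and 10.4% of all genes. The spread was wide: the interval lay inside 1.5-fold for 17 of the 59 genes at the high dose. For 30 of the 59 genes all 8 livers of the third slide were below all 12 others, and for 3 genes above them. Over all genes of the array, each by its brightest probe, the third slide lay below the others for 10.5% and above them for 16%. The largest high-dose changes, -2.29 for Ugt2b1 (95% interval -5.38 to 0.81, adjusted p = 0.701), -2.05 for Ugt2b35 and -2.04 for Ugt2b5, were all in glucuronosyltransferases. Within the slides that held both groups Ugt2b1 changed by -0.77 and -0.17, Ugt2b35 by -0.14 and -0.09, and Ugt2b5 by -0.37 and -1.17. The high-dose group had 3 arrays on the third slide and the vehicle group 1.

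Gsta3, the liver alpha-class gene, was lower in dosed livers within slides. Against 8.42 to 8.64 in the vehicle livers, the low-dose livers had levels of 8.00, 8.35, 8.36, 8.01 and 7.58. Medium-dose livers had 7.39, 8.19, 8.15, 8.08 and 8.04, and high-dose livers 8.05, 8.31, 7.76, 7.08 and 7.66. Every dosed liver was below every vehicle liver. The high-dose change was -0.78 (SE 0.20, adjusted p = 0.322), and a second probe gave -0.89 (adjusted p = 0.58). With slide as a block it was -0.64 (SE 0.14, adjusted p = 0.0337) and was called, within slides it was -0.45 and -0.98, and without the third slide it was -0.39 (adjusted p = 0.138).

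Ugt1a10 went the other way within slides. Its vehicle liver levels were 0.83, 0.83, 0.50, 0.92 and -0.26, and its high-dose levels were 1.39, 2.48, 0.13, 0.53 and 0.56. The groups overlapped over all mice, while on the slides without dim arrays both high-dose livers were above the 4 vehicle livers. The change was 0.45 over all mice (adjusted p = 0.74), 0.86 with slide as a block (SE 0.19, adjusted p = 0.0314, called), and 1.16 without the third slide (adjusted p = 0.0666). With the block 128 genes were called at the high dose, and Gsta3 and Ugt1a10 were the 2 members among them.

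**Figure D4:**
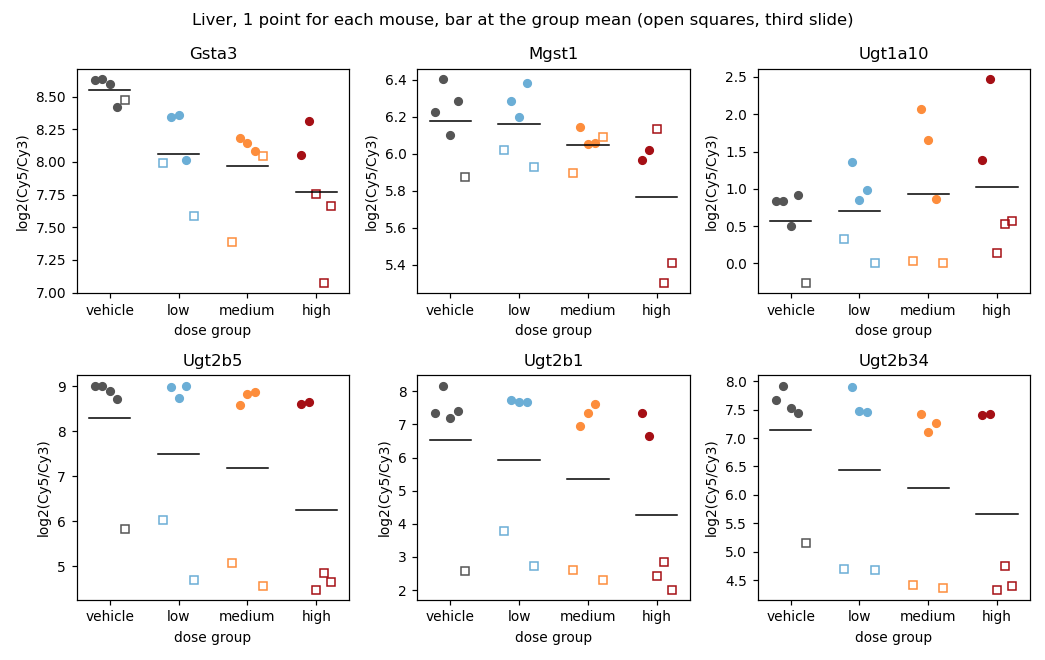
Liver level, log2(Cy5/Cy3), of 6 members by dose group, with 1 point for each mouse, open squares for the third slide and a bar at the group mean. For the Ugt2b genes the open squares form a separate low band at every dose, whereas every dosed Gsta3 point lies below the vehicle points.

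In the forestomach, which a gavage dose reaches first, no member was called either with loess normalization. Of all genes 0.0, 0.0 and 0.102% were called at the low, medium and high dose (38 genes at the high dose). An unadjusted p of 0.05 or less was found for 2, 9 and 7 members, or 3.39, 15.3 and 11.9%, against 6.61, 8.0 and 12.0% of all genes. At the medium dose the hepatocyte markers had a median change of 1.86 and the Ugt2 and Ugt3 genes one of 0.76. Sult2a8 was at 2.93 and 0.79 in medium-dose mice 12 and 15, and at -0.23 to -0.11 in the others of that group. In vehicle forestomach it was at -0.30 to -0.02. The part of such a liver-like signal in the medium-dose share was not tested. Without vehicle mouse 2, whose forestomach Cyp1a1 level was 4.39 against 0.36 to 1.85 in the other vehicle mice, 19 genes were called at the high dose. Without high-dose mouse 17, 19 or 20 there were 23, 20 and 23, and no omission gave a called member. Gstm2, of the mu class, came nearest. Its levels were 1.27, 1.25, 1.02, 1.34 and 1.28 in vehicle mice and 1.59, 1.75, 1.74, 1.70 and 1.70 at the high dose. All high-dose forestomachs were above all vehicle ones (0.47, SE 0.098, adjusted p = 0.0815), with 0.41, 0.41 and 0.68 within slides. With median centring in place of loess its change was 0.79 and was called (adjusted p = 0.0194).

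The other named differences did not pass. Gstm1 and Gsta3 had high-dose changes of 0.65 each (adjusted p = 0.478 and 0.551), and Gsta2 had one of 0.61 (adjusted p = 0.86). Mgst1 had a change of -0.48 (adjusted p = 0.732). Sult1e1 had levels of 4.04, 2.49, 4.17, 3.70 and 1.38 at the high dose, against 4.10 to 4.83 in vehicle mice. Mice 17 and 20 were low and the others near or inside the vehicle range, and the change of -1.13 did not pass (adjusted p = 0.405).

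Some sulfotransferases varied with the glandular stomach markers. Sult1c2 had levels of 5.51, -1.27, 2.28, 4.80 and 0.11 in the vehicle forestomachs, high in mice 1 and 4 and low in mouse 2, the same order of mice as for the marker mean. Over all 20 forestomachs its level changed by 1.39 ± 0.048 (SE) for each unit of the marker mean, with dose groups in the same fit. The slope was 1.13 ± 0.056 for Sult1b1, 0.73 ± 0.056 for Ugt2b34 and 0.72 ± 0.073 for Sult1d1. It was over 0.3 for 9 of the 59 genes, the forestomach-highest Gsta2, Gsto1, Mgst2 and Mgst3 among them, at 0.45, 0.37, 0.34 and 0.46. The forestomach-highest Gsta1 and Gsta4 had smaller slopes, of 0.23 ± 0.036 and 0.10 ± 0.020. Of the 59 slopes 29 were above 0 and 30 below it, the lowest at -0.189. Slopes over all genes of the array were not computed. The marker mean ranged over 1.31 to 6.37 in low-dose, 0.44 to 5.91 in medium-dose and 0.94 to 5.65 in high-dose mice, so the groups overlapped. The part of glandular stomach in the tissue differences of the members was not tested.

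**Figure D5:**
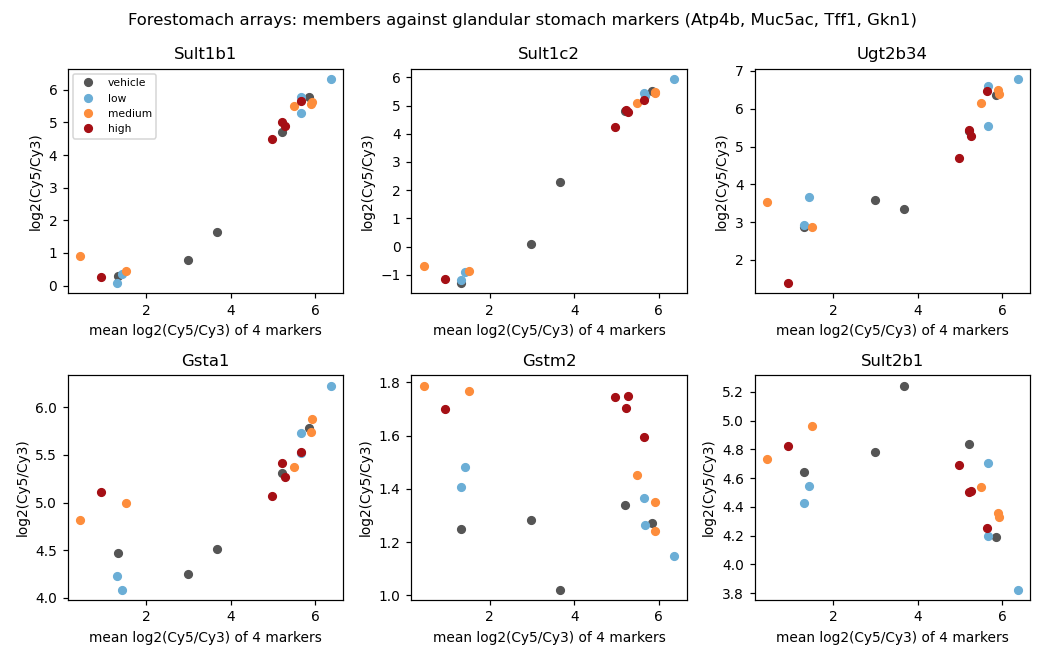
Forestomach level, log2(Cy5/Cy3), of 6 members in the 20 mice against the mean level of 4 glandular stomach markers, coloured by dose group. Sult1b1, Sult1c2 and Ugt2b34 climb with the markers, Gsta1 climbs less, and Gstm2 and Sult2b1 fall slightly (slopes of -0.043 ± 0.015 and -0.077 ± 0.027, SE).

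Whether the high-dose change differed between tissues was tested as an interaction. Between lung and liver, lung and forestomach, and liver and forestomach 0 members were called, against 0.439, 1.03 and 0.0404% of all genes. With any fold, 2 members passed adjusted p between lung and forestomach (1.35% of all genes did). Gsto2, an omega-class enzyme, had a change of -0.27 in lung and 0.23 in forestomach, a difference of -0.50 (adjusted p = 0.0384). Over all settings and omissions of a mouse its adjusted p ranged from 0.0245 to 0.767. With a mouse left out, a member passed in 6 of 10 fits. Gstm2 passed with 1 of its 3 probes, at -0.56 (SE 0.14, adjusted p = 0.0345), and its brightest probe gave -0.51 (adjusted p = 0.0928). For Gstm1 the difference was -1.06 (adjusted p = 0.0698), from -0.41 in lung and 0.65 in forestomach.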

How the data were processed

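RNA of lung, liver and forestomach was hybridised to Agilent SurePrint G3 mouse arrays, Cy5 for tissue and Cy3 for the reference, with no dyes swapped. The deposited scanner files hold intensity values that the authors read with Feature Extraction, as median pixel signals without background correction. The authors' table of log2 ratios, normalized by LOWESS, correlated at 0.967 to 0.999 with the values computed here and served as an alternative. The log2(Cy5/Cy3) of the median signals was loess-normalized within each array and tested with limma 3.58.1 in R 4.3.3, with the 4 dose groups of a tissue in 1 fit, the 3 vehicle groups in another, and Benjamini-Hochberg adjustment over all probes. The MAANOVA test of the study's methods was not run. A gene was called if any of its probes had an adjusted p of at most 0.05 and a difference of at least 1.5-fold, and its values are those of its brightest probe. Arrays carry no read depth, so the number of arrays limits the precision.

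Probes were named by matching accessions to the RefSeq table (26413 probes, 20018 symbols). Members, lists, tests and alternatives were chosen with earlier results of these data known. Named genes were those called with dose, the 2 of each family with the widest range of vehicle tissue means, the 3 largest changes in each direction per tissue at the high dose among members above background in a whole group, and the textbook AhR and NRF2 targets. Genes picked after their values were seen are Gstk1, Gstp2, Gsto2, Gstm5, Sult1a1, Sult1c2, Sult1d1, Sult2a7, Ugt2a3, Ugt2b1, Ugt2b34, Ugt2b36, Ugt2b37, Ugt3a2 and those of the other lists.

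The mouse number is the same animal in each tissue, per the labels. Deviations from group means of the same mouse correlated between tissues at -0.013 (lung and liver), 0.032 (lung and forestomach) and 0.027 (liver and forestomach) on average. Arrays of a group correlated at most at 0.948 to 0.981, so none was a copy. Alternatives were normexp background correction, median centring, the authors' ratios, a filter on dim probes, slide or mouse as a block, leaving out the third liver slide and leaving out each mouse. The within-tissue dose fits were run on simulated data with independent normal noise, without slide effects or a background floor. These data do not cover the slide split of the liver arrays. Start regions came from the RefSeq GRCm38.p6 table, in which 51 of the 59 members had an entry. No coordinate of the array's mm9 annotation is given.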

Additional observations from a re-analysis of the deposited data

Results flagged for a closer look

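In 5 mice a stray value was sought as the gap of the highest or the lowest mouse to the next, divided by the range of the group. Of 77 groups tested 15 passed the limit, where chance passes about 1 in 20. In 11 of the 15 the stray mouse was vehicle mouse 5 in liver, whose array was on the third slide. Its liver level was the lowest for Gstz1 (gap 0.755), Gstm6 (0.877), Gstm7 (0.929), Sult1b1 (0.867), Sult2a8 (0.901), Ugt2b1 (0.823), Ugt2b5 (0.912), Ugt2b35 (0.923) and Ugt2b38 (0.908), and the highest for Mgst2 (0.934) and Ugt1a6b (0.812). For Ugt2b1 it was 2.59 against 7.18 to 8.17 in the other vehicle livers, and for Ugt2b35 it was 1.55 against 6.18 to 6.56.

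Of the other 4 stray values, 3 were high values of vehicle mouse 4, each in another tissue. It was high for Gsta1 in liver (1.52 against 0.06 to 0.37, gap 0.782), for Sult1b1 in lung (0.46 against -0.12 to 0.02, gap 0.761) and for Sult1e1 in forestomach (4.83 against 4.10 to 4.25, gap 0.79). Mouse 3 was low for Ugt1a6b in forestomach (1.14 against 1.46 to 1.58, gap 0.736).

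By limma's interaction test the high-dose change differed between lung and forestomach for Gsto2 (-0.50, adjusted p = 0.0384). It also differed for 1 probe of Gstm2 (-0.56, adjusted p = 0.0345). Gsto2 and Gstm2 were below the 1.5-fold limit. Over all settings and omissions of a mouse the adjusted p of Gsto2 ranged from 0.0245 to 0.767.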

How the results depend on the processing

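With mice kept, counts of called members under other settings stayed within 1.5 times in 85 recounts and moved further in 6. A count of 0 that remained 0 was taken as staying. The main count was 0 for every dose contrast and every difference of the high-dose change. Median centring in place of loess gave 11 members in place of 24 between vehicle lung and forestomach, 4 (Gstp1, Gstt2, Mgst3 and Ugt1a6b) in lung and 1 (Gstm2) in forestomach at the high dose, in place of 0 each. It also turned the sign of Gstm1 in lung (0.11), of Mgst3, Gstm2 and Gstm1 in liver (-0.75, -1.58 and -2.08) and of Gstz1 in forestomach (0.0498). The small liver change of Gstm1 (0.04) also turned with the authors' ratios (-0.0496), slide as a block (-0.0333) and without the third liver slide (-0.0179), and ranged from -0.0558 to 0.22 with each mouse left out. Slide as a block gave 2 called members in liver at the high dose (Gsta3 and Ugt1a10), and 1 (Gstm2) for the lung to forestomach difference of the high-dose change. The filter on dim probes gave 1 there (Gstm1), and leaving out a mouse 0 to 2, with a call without mouse 3, 4, 5 or 16. For these differences the causes were not tested. With the mouse as a replicate block, pairing the tissues of an animal, 41, 25 and 42 members were called in the vehicle comparisons and 0, 0 and 0 in the differences of the high-dose change, so no count moved by 1.5 times. Gstm2 in forestomach passed adjusted p with the glandular marker mean as a covariate, an alternative chosen after seeing the data. On the third liver slide 10.7 to 12.9% of probes were above background, and the part of this in the wide liver intervals was not tested.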
